A study of Mus musculus with 9 samples.

Results

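The insulin-like growth factor (IGF) system was followed through 10 genes, chosen by symbol: the ligand gene Igf1, the receptor genes Igf1r and Igf2r, and the binding protein genes Igfbp1 to Igfbp7. All 10 were among the 24421 gene symbols measured. The material was 9 liver tumors from 11 weeks old C57BL/6 mice, and all 10 members were among the 14215 genes that passed the filter on low values. The tumors formed 3 groups of 3, labelled LHP (tumors 2, 3 and 6), S7HP (tumors 9, 11 and 12) and S7HP+Snail (tumors 13, 14 and 15). The column names give LHP as Luc, a luciferase control, and S7HP as Smad7, which antagonizes TGF-β receptors. The third group carried Snail, the transcriptional repressor encoded by Snai1, in addition. The labels do not spell out H and P, which all 3 groups share. In the published mouse model of this name they stand for an activated Hras and a short hairpin against the p53 gene, introduced into hepatocytes by injection, while the other cells of the liver are the host's own. No tumor without H and P and no normal liver was analysed here, and the labels do not say whether tumors of a group came from separate mice.

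IGF1, made by hepatocytes under growth hormone, signals through the receptor tyrosine kinase encoded by Igf1r. The cation-independent mannose 6-phosphate receptor, encoded by Igf2r, takes up IGF2 for lysosomal breakdown and sorts lysosomal enzymes. The binding proteins IGFBP1 to IGFBP6 bind IGFs tightly, carry them in blood and limit or prolong their access to the receptor, whereas IGFBP7 binds them weakly. Liver is a main source of circulating IGFBP1, an insulin-repressed protein. The comparisons ask how the IGF genes stood when Smad7 took the place of Luc, when Snail was added, and when both were present.

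Values are log2(normalized count + 1) from 3′ tag libraries, in which a transcript gives about 1 read whatever its length. Levels of different genes were therefore set side by side without a length correction. Other differences between genes in how their transcripts are counted were not examined. Group means in the order LHP, S7HP, S7HP+Snail were 10.07 ± 0.52, 6.52 ± 0.27 and 7.36 ± 0.62 for Smad7 and 10.69 ± 0.66, 6.48 ± 0.39 and 8.10 ± 0.69 for Snai1 (SD, n = 3 each). Since a 3′ tag counts a construct only if that carries the 3′ end of the gene, neither gene is a check of the labels. Within groups the libraries correlated across genes, which are not independent replicates, at 0.939 to 0.945 in LHP, 0.923 to 0.936 in S7HP and 0.864 to 0.900 in S7HP+Snail. Tumor 14 stood apart from the rest on the second principal component (18.6% of the variance), at 118.1 against 31.3 and 25.9 for the other S7HP+Snail tumors. All 10 hepatocyte markers examined were above 0 in all 9 tumors. Their summed level, log2(summed normalized count + 1), was lowest in LHP (15.06 to 15.83), against 16.89 to 18.59 in S7HP and 16.63 to 17.73 with Snail.

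In S7HP tumors the type 1 receptor gene Igf1r and the binding protein gene Igfbp5 were lower than in LHP, and Igfbp1 and the type 2 receptor gene Igf2r were higher. With Snail added, Igf1r and Igfbp5 were higher than in S7HP. S7HP+Snail tumors differed from LHP tumors in Igfbp5, Igfbp6 and Igf2r, all higher. By limma with a Benjamini-Hochberg adjusted p under 0.05, 4 of 10 members were called in S7HP against LHP (2 higher, 2 lower), where 19.0% of all tested genes were called (9.47% higher, 9.54% lower). In S7HP+Snail against S7HP the count was 2 of 10, both higher, against a background of 2.30% (1.01% higher, 1.29% lower), and in S7HP+Snail against LHP it was 3 of 10, all higher, against 7.22% (3.35% higher, 3.87% lower). The median difference of the 10 members was 0.02, 0.24 and 0.44 in these comparisons, and that of all tested genes was 0.02, -0.02 and 0.00 (log2 scale). The groups did not overlap for 4, 3 and 5 of the 10 members, with backgrounds of 42.1%, 20.5% and 30.5%. The counts fell when some single tumors were left out, which also leaves fewer samples. Over all genes, calls then fell as low as 1465 from 2702, 63 from 327 and 293 from 1026, in the same order of comparisons. The cause was not tested. In S7HP against LHP 1 or 2 members were called on omission of an LHP tumor or tumor 12. In S7HP+Snail against S7HP 1 was called on omission of any tumor except tumor 14. In S7HP+Snail against LHP 0 were called on omission of an LHP tumor, tumor 13 or tumor 15. Without tumor 14, which stood apart, the counts with Snail were 2 and 3. The comparisons share tumors, so they are not independent of each other.

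**Figure D1:**
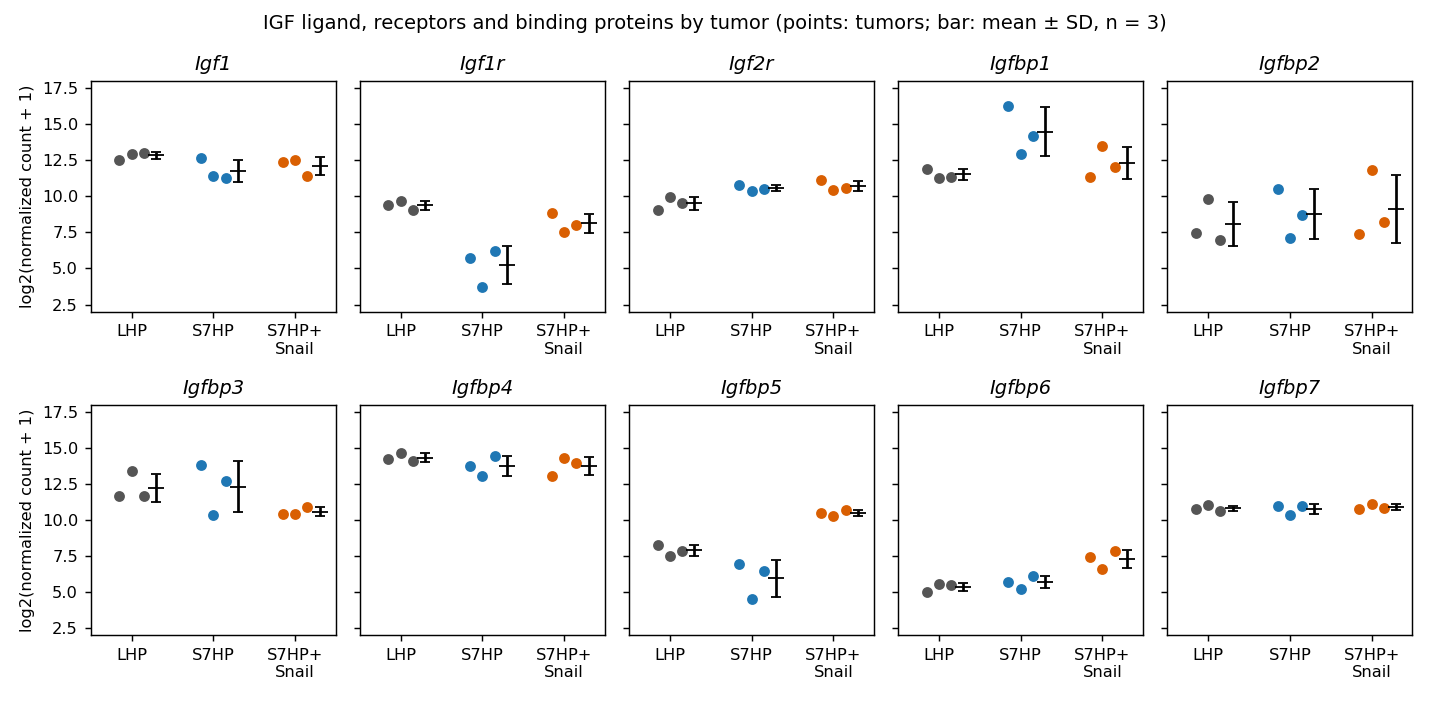
Each panel plots log2(normalized count + 1) of 1 gene in the 9 tumors, as points by group, with the mean and SD (n = 3) beside them. Igf1r lies at 3.74 to 6.20 in S7HP and at 7.55 or above in all other tumors, Igfbp5 is highest in S7HP+Snail, and Igfbp7 stays between 10.39 and 11.13.

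**Figure D2:**
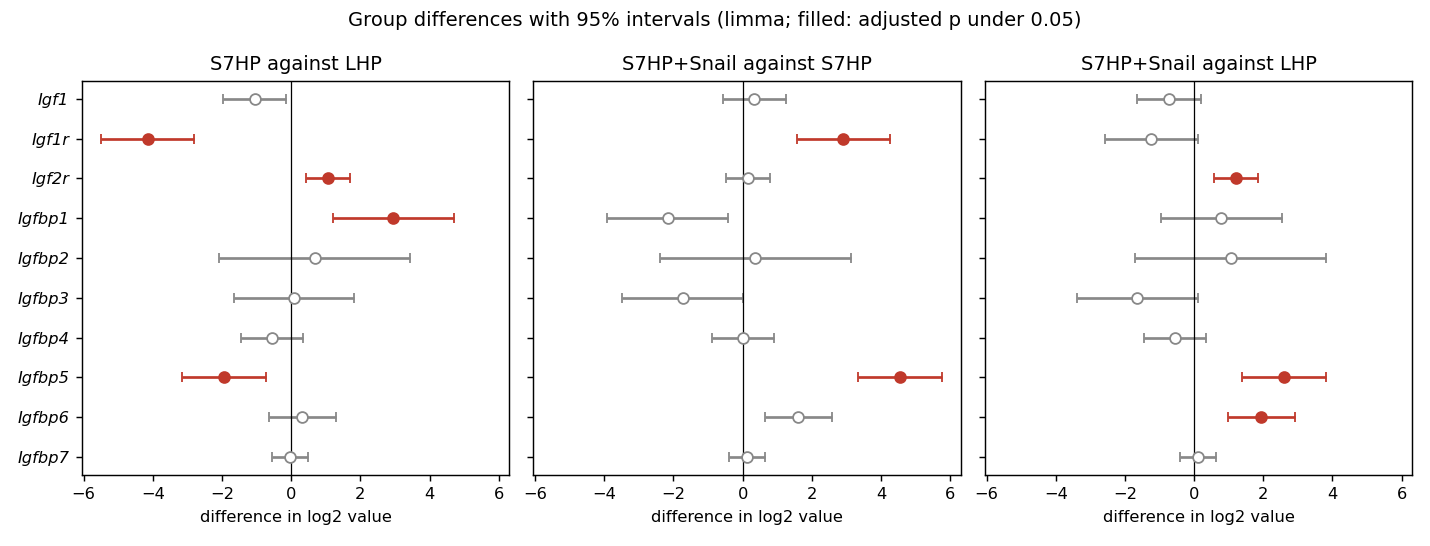
Differences between group means in log2 value are shown for the 10 genes in the 3 comparisons, with 95% intervals from limma. Filled red points passed an adjusted p of 0.05: 4 in S7HP against LHP, 2 in S7HP+Snail against S7HP and 3 in S7HP+Snail against LHP.

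The 250 bases before 1 RefSeq start site per gene (build GRCm38.p6) were found for all 10 genes. They are shown, 5′ to 3′ on the gene's strand, for the 4 members called in S7HP against LHP, since these genes moved in 2 directions. Other start sites of the 10 genes were not searched. Capitals mark 3 searched motifs in either orientation: CAGGTG, the E-box type that Snail binds, CAGAC, a Smad-binding half-site, and CAAAACA, the core of the insulin response sequence known from the Igfbp1 promoter.
Igfbp1, chr11:7197537-7197786, plus strand: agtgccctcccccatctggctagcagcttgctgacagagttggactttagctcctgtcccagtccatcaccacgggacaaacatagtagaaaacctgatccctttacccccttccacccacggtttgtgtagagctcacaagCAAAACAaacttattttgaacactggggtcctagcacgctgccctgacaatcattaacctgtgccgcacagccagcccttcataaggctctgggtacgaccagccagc
Igfbp5, chr1:72874866-72875115, minus strand: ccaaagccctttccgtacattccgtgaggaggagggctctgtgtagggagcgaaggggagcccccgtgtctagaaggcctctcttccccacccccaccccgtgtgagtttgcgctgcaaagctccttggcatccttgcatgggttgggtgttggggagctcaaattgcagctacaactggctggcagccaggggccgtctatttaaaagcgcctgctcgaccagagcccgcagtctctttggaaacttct
Igf1r, chr7:67952007-67952256, plus strand: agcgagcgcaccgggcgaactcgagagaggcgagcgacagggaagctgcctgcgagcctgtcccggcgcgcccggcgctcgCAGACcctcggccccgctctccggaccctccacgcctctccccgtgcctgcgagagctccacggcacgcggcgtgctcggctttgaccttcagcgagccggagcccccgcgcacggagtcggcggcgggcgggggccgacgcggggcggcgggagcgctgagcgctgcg
Igf2r, chr17:12769707-12769956, minus strand: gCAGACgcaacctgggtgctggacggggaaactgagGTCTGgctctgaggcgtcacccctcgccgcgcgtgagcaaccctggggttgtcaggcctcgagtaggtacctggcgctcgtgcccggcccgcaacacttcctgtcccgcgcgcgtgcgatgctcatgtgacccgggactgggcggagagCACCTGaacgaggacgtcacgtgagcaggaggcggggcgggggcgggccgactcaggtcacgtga
The insulin response core was present in 1 of 10 members, at -108 in Igfbp1, and in 5.55% of the 27025 RefSeq promoters of the same length. CAGGTG was present in 2 of 10 members, Igfbp3 and Igf2r, and in 17.1% of promoters. CAGAC was present in 3 of 10, Igfbp6, Igf1r and Igf2r, and in 42.1% of promoters. The Igfbp5 window held none of these motifs. A further motif, the GC box GGGCGG, was present in 4 of 10 members, Igfbp2, Igfbp7, Igf1r and Igf2r, and in 32.9% of promoters. No match overlapped a match of another motif, and all are letter matches only. The windows of Igf1r and Igf2r were GC-rich, at 77.6% and 69.2% with 42 and 27 CpG dinucleotides, while those of Igfbp5 and Igfbp1 held 58.8% and 53.2% with 10 and 5. The median promoter had 52% and 6.

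Igf1 (chromosome 10, 87858265 to 87937042, GENCODE on GRCm38) encodes the ligand IGF1. Its level was 12.54, 12.95 and 13.03 in LHP tumors 2, 3 and 6, at 12.66, 11.41 and 11.26 in S7HP tumors 9, 11 and 12, and at 12.39, 12.54 and 11.41 in S7HP+Snail tumors 13, 14 and 15. S7HP tumors 11 and 12 and S7HP+Snail tumor 15 were the low ones, and the groups overlapped. The difference between S7HP and LHP was -1.06 ± 0.41 (SE; limma, adjusted p = 0.0992) and did not pass, although it did without S7HP tumor 9 (adjusted p = 0.0300). Snail-added tumors differed from S7HP by 0.34 (95% interval -0.58 to 1.26) and from LHP by -0.72 (95% interval -1.64 to 0.20), neither of which passed.

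Igf1r (chromosome 7, 67952827 to 68233668) encodes the receptor that carries the growth signal of IGF1 and IGF2. Its level was 9.38, 9.67 and 9.06 in LHP tumors 2, 3 and 6, then 5.73, 3.74 and 6.20 in S7HP tumors 9, 11 and 12, and 8.85, 7.55 and 8.0 in S7HP+Snail tumors 13, 14 and 15. Every S7HP tumor lay below every other tumor, and tumor 11 was the lowest. There, Igf1r was at step 7 above 0 among the library's distinct values, or about 7 reads if successive low values are successive read counts, so this value is imprecise. Relative to LHP, Igf1r fell by 4.15 ± 0.60 (SE) on the log2 scale in S7HP, a 17.7-fold difference on this scale (limma, adjusted p = 0.00247), which held in all 15 alternatives. In S7HP+Snail it was 2.91 ± 0.60 higher than in S7HP (limma, adjusted p = 0.0409), higher in 3 of 3 tumors. This second call did not survive 11 of 15 alternatives, which include the omission of any single tumor except tumor 14 (adjusted p from 0.0292 to 0.122 over alternatives). Against LHP, the S7HP+Snail tumors were all lower without overlap, but the difference of -1.24 (95% interval -2.58 to 0.10) did not pass (adjusted p = 0.233).

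Markers of other cell types were read beside Igf1r. The stellate cell and fibroblast sums had the group order of Igf1r, while the endothelial sums of LHP overlapped those of both other groups. Over all tested genes 19.0% were called in S7HP against LHP and 2.30% in S7HP+Snail against S7HP. Of 12 stellate cell and fibroblast markers, 0 were higher and 5 lower in S7HP than in LHP (Acta2, Col1a1, Des, Pdgfrb and Tagln, named, like other markers here, after their values were seen). In S7HP+Snail against S7HP 0 of 12 were called by limma, with 2 at an unadjusted p under 0.05. Summed, they reached 14.71 to 15.17 in LHP and 12.55 to 13.38 in S7HP, and 13.43 to 13.95 with Snail, with no marker at 0 in any tumor. Of 12 endothelial markers 3 were lower in S7HP than in LHP (Plvap, Stab1 and Tie1), and summed levels were 12.75 to 13.09, 12.07 to 12.76 and 13.08 to 13.57 in the order LHP, S7HP, S7HP+Snail. Relative to S7HP 1 endothelial marker, Plvap, was called higher with Snail, 8 of 12 had an unadjusted p under 0.05, and the list's median change was 1.11 beside -0.02 for all genes. Against LHP 1 endothelial marker, Egfl7, was called higher with Snail. In that comparison 3 of 12 stellate cell and fibroblast markers were lower (Acta2, Col1a1 and Pdgfrb) and 0 higher. Over all tested genes 3.35% were called higher and 3.87% lower there. The part of these cells in the Igf1r and Igfbp5 values was not tested, and in bulk tumors fewer cells of a type and less RNA per cell cannot be told apart. Insr, the gene of the related insulin receptor, chosen as a reference outside the rule for named genes, lay between 9.10 and 10.50 over the 9 tumors. Its difference between S7HP and LHP, 0.38 ± 0.38 (SE), did not pass (limma, adjusted p = 0.508). Within each tumor, Igf1r minus Insr was -0.29 to 0.35 in LHP, -5.55 to -3.41 in S7HP and -2.94 to -1.10 in S7HP+Snail (log2 scale).

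Igf2r (chromosome 17, 12682406 to 12769664, minus strand) encodes the receptor that clears IGF2. Its level was 9.03, 9.95 and 9.56 in LHP tumors 2, 3 and 6, then 10.82, 10.37 and 10.54 in S7HP tumors 9, 11 and 12, and 11.12, 10.47 and 10.57 in S7HP+Snail tumors 13, 14 and 15. All 6 tumors that received Smad7 lay above all LHP tumors. The rise was 1.06 ± 0.29 (SE) in S7HP and 1.21 ± 0.29 in S7HP+Snail against the same LHP tumors (limma, adjusted p = 0.0302 and 0.0365). The first did not pass when LHP tumor 2 or 6 or any single S7HP tumor was omitted (adjusted p from 0.0261 to 0.0979 over alternatives). The second was lost in 9 of 15 alternatives (0.0350 to 0.103), which include the omission of 1 of the LHP tumors, of tumor 11 or 12, or of tumor 13 or 15. S7HP+Snail and S7HP differed by 0.15 (95% interval -0.49 to 0.79). The antisense RNA gene Airn overlaps the upstream part of Igf2r but not its 3′ end, and stood at 4.85 to 7.09 over the 9 tumors. The balance of the receptor genes, Igf1r minus Igf2r on the log2 scale, was 0.35, -0.28 and -0.50 in LHP tumors 2, 3 and 6. It was -5.09, -6.63 and -4.33 in S7HP tumors 9, 11 and 12 and -2.27, -2.92 and -2.57 in S7HP+Snail tumors 13, 14 and 15. The ranges of the 3 groups were separate, as those of Igf1r alone already were.

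Sorting of enzymes tagged with mannose 6-phosphate to lysosomes is the other role of Igf2r, and 15 genes of this tagging and sorting were examined. In S7HP against LHP, where 19.0% of all tested genes were called, 1 of the 15 was higher and 0 lower. This was M6pr, the gene of the smaller, cation-dependent mannose 6-phosphate receptor, at 9.29, 9.50 and 9.39 in LHP and 10.46, 10.59 and 10.11 in S7HP (change 0.99 ± 0.22 SE; limma, adjusted p = 0.0131). In S7HP+Snail 0 of 15 were called by limma against either group, with 2 at an unadjusted p under 0.05 against S7HP and 3 against LHP. The median of the list was -0.16, 0.20 and 0.04 in the order S7HP against LHP, S7HP+Snail against S7HP and S7HP+Snail against LHP, beside 0.02, -0.02 and 0.00 for all genes.

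Igfbp1 (chromosome 11, 7197782 to 7202546) encodes the insulin-repressed binding protein made by hepatocytes. It measured 11.93, 11.25 and 11.37 in LHP tumors 2, 3 and 6, at 16.30, 12.93 and 14.20 in S7HP tumors 9, 11 and 12, and at 11.36, 13.50 and 12.06 in S7HP+Snail tumors 13, 14 and 15. All S7HP tumors were above all LHP tumors, with tumor 9 far above the rest, where Igfbp1 ranked 13 of all symbols. The rise in S7HP was 2.96 ± 0.78 (SE; limma, adjusted p = 0.0286), a call that ended when any LHP tumor, or tumor 9 or 12, was omitted (0.0146 to 0.0893 over alternatives). In S7HP+Snail the level was -2.17 ± 0.78 relative to S7HP and 0.79 ± 0.78 relative to LHP, neither passing (limma, adjusted p = 0.186 and 0.568). Summed hepatocyte markers were also highest in tumor 9, at 18.59. Where 9.47% of all tested genes were called higher, 4 of 10 of these markers were higher in S7HP than in LHP (Alb, Apoa1, Hnf4a and Serpina1a) with 0 lower. Their part in the Igfbp1 value was not tested.

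Igfbp2 (chromosome 1, 72824503 to 72852474), a binding protein abundant in fetal liver, varied widely within groups. Its values were 7.47, 9.83 and 7.0 in LHP tumors 2, 3 and 6, then 10.53, 7.13 and 8.67 in S7HP tumors 9, 11 and 12, and 7.42, 11.83 and 8.20 in S7HP+Snail tumors 13, 14 and 15. Tumors 3, 9 and 14 were the highest of their groups, and the groups overlapped in every comparison. The within-group SD of Igfbp2, 1.89, exceeded that of 96.8% of tested genes, whose median was 0.46. The difference between S7HP and LHP was 0.68 (95% interval -2.08 to 3.45). The S7HP+Snail mean rested on tumor 14: against S7HP the difference was 0.37 with it and -0.97 without it, and neither passed (limma, adjusted p = 0.911 and 0.728).

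Igfbp3 (chromosome 11, 7206086 to 7213923, minus strand) encodes the main IGF carrier of blood, made in liver mostly outside hepatocytes. Levels were 11.67, 13.38 and 11.66 in LHP tumors 2, 3 and 6, then 13.84, 10.37 and 12.73 in S7HP tumors 9, 11 and 12, and 10.41, 10.43 and 10.92 in S7HP+Snail tumors 13, 14 and 15. The S7HP+Snail tumors were low and close together (SD 0.29), whereas S7HP held both the highest and the lowest of the 9 values. S7HP+Snail lay below LHP without overlap, by a difference of -1.65 ± 0.78 (SE), and did not pass (limma, adjusted p = 0.223). Relative to S7HP the difference was -1.73 ± 0.78, again not passing (adjusted p = 0.286). S7HP and LHP differed by 0.08 (95% interval -1.67 to 1.83).

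Igfbp4 (chromosome 11, 99041244 to 99054392), whose protein inhibits IGF action until it is cleaved by the protease PAPP-A, was the most abundant member over all tumors. LHP tumors ranged from 14.08 to 14.66, S7HP tumors from 13.06 to 14.45 and tumors with Snail from 13.05 to 14.27. No comparison passed: the differences were -0.56 in S7HP and also -0.56 in S7HP+Snail relative to LHP (95% intervals -1.46 to 0.34 for both), and 0.00 between S7HP+Snail and S7HP (95% interval -0.90 to 0.90).

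Igfbp5 (chromosome 1, 72857932 to 72874884, minus strand) encodes a binding protein held in the extracellular matrix, typical of mesenchymal cells. Its level was 8.27, 7.54 and 7.86 in LHP tumors 2, 3 and 6, then 6.93, 4.50 and 6.46 in S7HP tumors 9, 11 and 12, and 10.50, 10.30 and 10.69 in S7HP+Snail tumors 13, 14 and 15. The 3 groups did not overlap, and the S7HP+Snail tumors were close together (SD 0.19). Igfbp5 fell by 1.93 ± 0.54 (SE) in S7HP relative to LHP (limma, adjusted p = 0.0351), a call that ended without any 1 of the LHP tumors and with a variance model lacking trend and robust weights (0.0237 to 0.106 over alternatives). With Snail it was 4.54 ± 0.54 higher than in S7HP, a 23.2-fold difference on this scale (limma, adjusted p = 0.00517), and this call held in all 15 alternatives (0.00332 to 0.0321). S7HP+Snail also exceeded LHP, by 2.60 ± 0.54 (limma, adjusted p = 0.0242), a call that ended when an LHP tumor, tumor 13 or tumor 15 was omitted (0.00419 to 0.0883). The summed stellate cell and fibroblast markers and the summed endothelial markers, given above with Igf1r, were both higher in every S7HP+Snail tumor than in every S7HP tumor. Relative to LHP, the stellate cell and fibroblast sums were lower in every S7HP+Snail tumor, and the endothelial sums overlapped.

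Igfbp6 (chromosome 15, 102144362 to 102149511) encodes a binding protein that prefers IGF2 to IGF1. It was the least abundant member over all tumors, at 5.02, 5.55 and 5.49 in LHP tumors 2, 3 and 6 and 5.70, 5.24 and 6.09 in S7HP tumors 9, 11 and 12. In S7HP+Snail tumors 13, 14 and 15 it was 7.45, 6.57 and 7.84, above all other tumors. The rise relative to LHP was 1.94 ± 0.43 (SE; limma, adjusted p = 0.0302). That call was lost when only the 6 libraries compared were fitted, and on omission of an LHP tumor, tumor 13 or tumor 15 (0.0193 to 0.0880 over alternatives). Relative to S7HP the difference of 1.61 ± 0.43, in 3 of 3 tumors, did not pass (limma, adjusted p = 0.0888).

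Igfbp7 (chromosome 5, 77349240 to 77408041, minus strand), the low-affinity member, common in vessel walls, was the steadiest. It lay between 10.39 and 11.13 in the 9 tumors, with group means of 10.81, 10.77 and 10.91 and a within-group SD below that of most tested genes (percentile 13.0). The differences were -0.04 in S7HP and 0.10 in S7HP+Snail against LHP (95% intervals -0.56 to 0.48 and -0.42 to 0.62), and 0.14 between S7HP+Snail and S7HP (-0.38 to 0.66). The 3′ end of the opposite-strand gene Polr2b overlaps that of Igfbp7. Whether counting used strand is not stated, so reads of the pair cannot be told apart there. Polr2b stood at 9.86 to 10.34.

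Normalized counts of the 7 binding protein transcripts summed to between 25184 and 42168 in LHP tumors, between 19217 and 112599 in S7HP tumors and between 15985 and 40020 in those with Snail. Igfbp4 was the largest component in 8 of 9 tumors, and Igfbp1 in S7HP tumor 9. Igfbp1 accounted for 5.77% to 13.8% of the sum in LHP, for 71.4%, 40.5% and 37.2% in S7HP tumors 9, 11 and 12, and for 16.4%, 29.0% and 16.4% in S7HP+Snail tumors 13, 14 and 15. For Igfbp5 the share was 0.440% to 1.08% in LHP and 0.107% to 0.172% in S7HP, then 9.06%, 3.15% and 6.33% in S7HP+Snail tumors 13, 14 and 15. The share of Igfbp1 was thus higher in each S7HP tumor than in any other tumor, and that of Igfbp5 in each S7HP+Snail tumor. Binding protein counts per Igf1 count ranged from 3.01 to 5.34 in LHP, from 7.05 to 20.6 in S7HP and from 2.97 to 9.52 with Snail. These ratios leave out the ligand gene Igf2. Its level was 5.94 to 8.01 in LHP, 10.79 to 15.76 in S7HP and 14.70 to 15.99 with Snail (log2 scale). The ratios therefore do not give the balance of binding proteins to IGF ligands. These shares and ratios describe transcripts and were not tested.

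**Figure D3:**
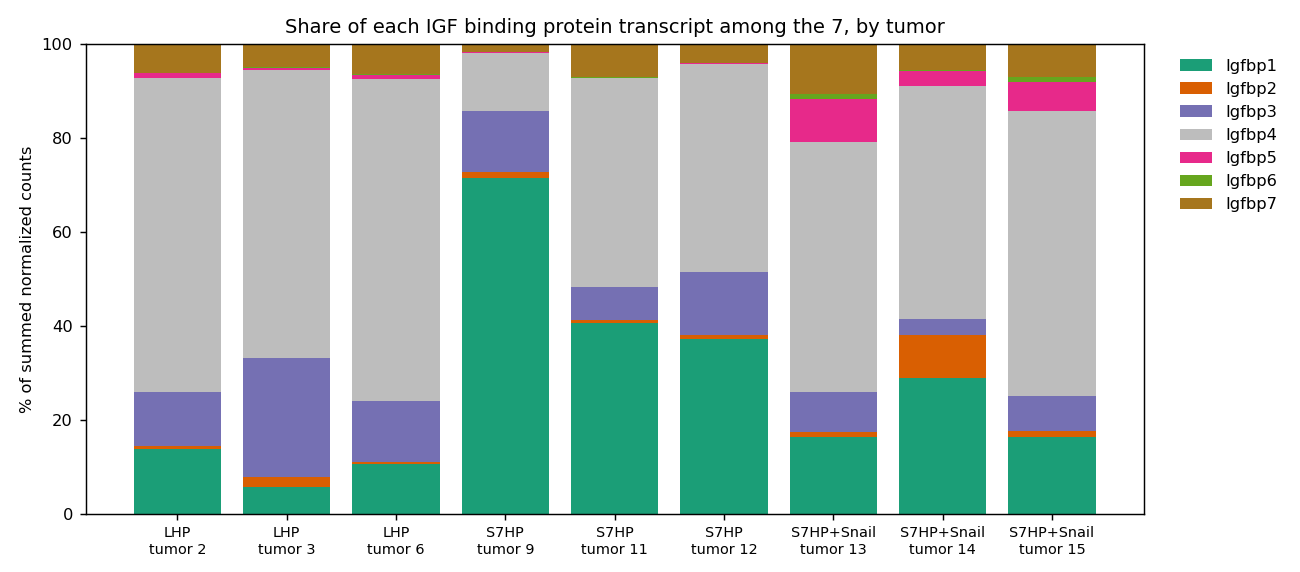
Each bar is 1 tumor and shows the percentage of each of the 7 binding protein transcripts in their summed normalized counts. Igfbp1 (green) takes 37.2% to 71.4% in S7HP, and Igfbp5 (pink) is visible at 3.15% to 9.06% in S7HP+Snail.

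By mean level, the order in LHP was Igfbp4, Igf1, Igfbp3, Igfbp1, Igfbp7, Igf2r, Igf1r, Igfbp2, Igfbp5 and Igfbp6. In S7HP it began with Igfbp1 and Igfbp4 and ended with Igfbp5, Igfbp6 and Igf1r, at 5.96, 5.68 and 5.22, and the ranges of these last neighbours overlapped. The ranges of Igfbp1 and Igfbp4 in S7HP overlapped too. In S7HP+Snail, Igfbp7, Igf2r, Igfbp3 and Igfbp5 followed each other at 10.91, 10.72, 10.59 and 10.50 with overlapping ranges. Of the 10 members, Igfbp5 ranged most widely over the 9 tumors, by 6.19, followed by Igf1r, by 5.94, and Igfbp7 least, by 0.75 (log2 scale).

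Some binding protein genes are direct neighbours. Igfbp1 and Igfbp3 lie 3539 bases apart on chromosome 11 and Igfbp2 and Igfbp5 lie 5457 bases apart on chromosome 1, each pair on opposite strands with their 3′ ends facing and 0 protein-coding genes between. Neighbours did not share their calls: Igfbp1 was called in S7HP against LHP and Igfbp3 was not, and Igfbp5 was called in all 3 comparisons and Igfbp2 in 0 by limma. Whether the neighbours' changes differed was not tested.

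**Figure D4:**
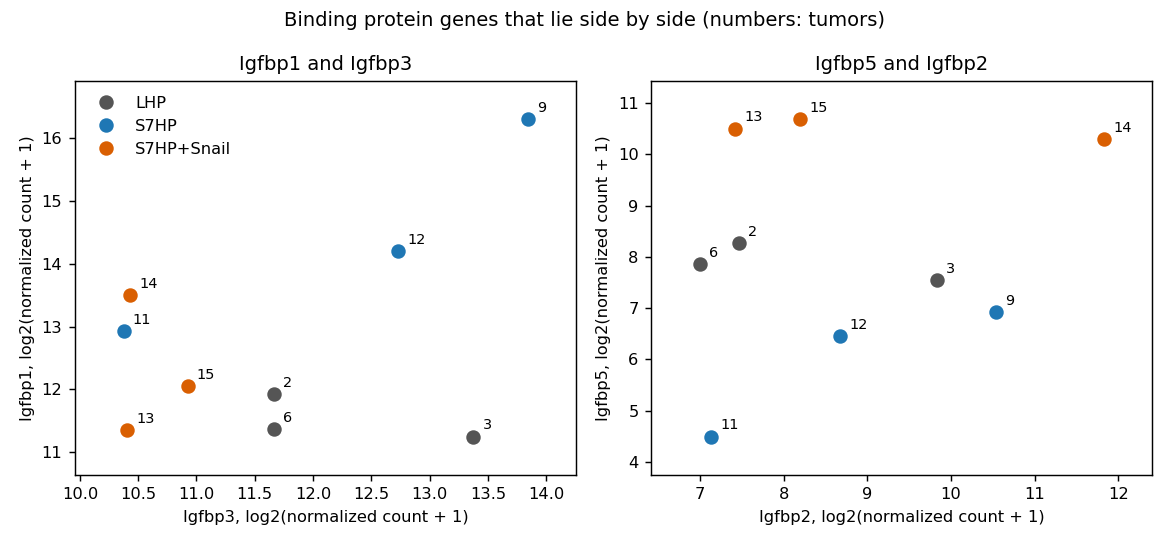
Log2(normalized count + 1) of Igfbp1 is plotted against its neighbour Igfbp3 (left) and of Igfbp5 against its neighbour Igfbp2 (right), 1 point per tumor with its number. In the right panel the S7HP+Snail tumors lie between 10.30 and 10.69 for Igfbp5 while Igfbp2 ranges from 7.42 to 11.83.

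The rest of the pathway was read from lists. Over all tested genes, 19.0%, 2.30% and 7.22% were called in S7HP against LHP, S7HP+Snail against S7HP and S7HP+Snail against LHP. Of 11 further genes for IGF2, the ternary complex and binding protein cleavage, 9 were tested, and in S7HP against LHP 3 were higher and 4 lower. Igf2, the fetal ligand that Igf2r clears, was at 7.32, 8.01 and 5.94 in LHP and 15.76, 10.79 and 12.28 in S7HP, a rise of 5.85 ± 1.07 (SE; limma, adjusted p = 0.00691). In S7HP+Snail tumors 13, 14 and 15 it was at 15.99, 15.71 and 14.70, higher than in LHP by 8.38 ± 1.07 (limma, adjusted p = 0.00345). Igfals, whose protein holds IGF1 and IGFBP3 in the ternary complex of blood, rose by 2.24 ± 0.59 in S7HP (adjusted p = 0.0275), a call that ended without LHP tumor 2, LHP tumor 3 or any single S7HP tumor (0.00911 to 0.0934 over alternatives). The serine protease gene Htra1 fell by 3.60 ± 0.40 and the metalloprotease gene Adam12 by 3.20 ± 0.53 (adjusted p = 0.000755 and 0.00459). Both encode enzymes that can cleave IGF binding proteins. The other 3 called members, named after their values were seen, were Pappa, encoding PAPP-A (-4.19), the protease gene Htra3 (-2.52) and Stc1, a PAPP-A inhibitor gene (3.01). Their adjusted p-values were 0.0302, 0.0346 and 0.0288 (limma). The mean of Pappa in S7HP was 2.67, below the filter value of 4, so its change is imprecise. S7HP+Snail tumors had Igf2 above LHP, as given, while Htra1 and Adam12 were lower, by -2.68 and -3.06, the last lost without LHP tumor 6 (adjusted p = 0.0549). Against S7HP, 0 of 9 were called by limma, with 3 at an unadjusted p under 0.05. The medians of the list were 1.10, 0.92 and 1.01 in the order S7HP against LHP, S7HP+Snail against S7HP and S7HP+Snail against LHP, beside 0.02, -0.02 and 0.00 for all genes.

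Of 10 genes of the growth hormone axis, which governs Igf1 in liver, 4 were higher and 2 lower in S7HP than in LHP. Over all tested genes 9.47% were called higher and 9.54% lower there. The receptor gene Ghr measured 12.86, 12.85 and 13.82 in LHP tumors 2, 3 and 6 and 10.59, 10.22 and 10.61 in S7HP tumors 9, 11 and 12. With Snail it measured 10.28, 11.69 and 11.44 in tumors 13, 14 and 15. It fell by 2.70 ± 0.39 (SE) in S7HP and by 2.04 ± 0.39 in S7HP+Snail relative to LHP (limma, adjusted p = 0.00247 and 0.0172), the second lost without LHP tumor 6 (adjusted p = 0.0657). Cish, a feedback gene induced through STAT5, fell by 2.45 ± 0.44 in S7HP (adjusted p = 0.00622). The hepatocyte transcription factor gene Hnf4a was higher there by 3.05 ± 0.34 (adjusted p = 0.000809). Also higher, and named after their values were seen, were Igfals, counted above, and the STAT gene Stat5b (0.97, adjusted p = 0.0455). Hnf4a is also 1 of the hepatocyte markers. Against S7HP, 0 of 10 were called in S7HP+Snail by limma, with 3 at an unadjusted p under 0.05. The medians of this list were 0.62, -0.05 and 0.45 in the same order of comparisons, beside 0.02, -0.02 and 0.00 for all genes. In S7HP+Snail against LHP 1 of 10 was higher and 1 lower, where 7.22% of all tested genes were called. Hnf4a was higher in S7HP+Snail than in LHP, by 1.85, and lost the call without LHP tumor 2 or 6 (up to 0.0597).

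Downstream of the receptors, 30 of 32 insulin and IGF receptor signaling genes were tested, and 1 was higher and 2 lower in S7HP than in LHP. Over all tested genes 19.0% were called there, so this list was called no more often than genes at large. The higher one was Foxo1 (1.31 ± 0.30 SE; limma, adjusted p = 0.0158), the transcription factor that insulin signaling keeps out of the nucleus, with the call lost without LHP tumor 6 or S7HP tumor 9 (up to 0.0636). The lower ones were Tsc2, a brake on mTORC1 (-1.17 ± 0.23, adjusted p = 0.00867), and the phosphatase gene Inpp5d (-1.62 ± 0.38, adjusted p = 0.0161), typical of blood cells, lost without LHP tumor 6 or S7HP tumor 11 (up to 0.0558). Beside Inpp5d, 2 of 10 macrophage and myeloid markers were lower (Itgam and Marco), with summed levels of 11.78 to 11.98 in LHP and 11.28 to 11.69 in S7HP, and their part in its value was not tested. Of the list, 1 gene was called in S7HP+Snail against S7HP, again Tsc2 (1.13 ± 0.23, adjusted p = 0.0404), but not under 10 of 15 alternatives, which include the omission of any single tumor except tumor 15 (0.0386 to 0.130). Against LHP 0 of 30 were called in S7HP+Snail by limma, with 2 at an unadjusted p under 0.05. The medians of the list were -0.39, 0.24 and -0.05 in the order S7HP against LHP, S7HP+Snail against S7HP and S7HP+Snail against LHP, against 0.02, -0.02 and 0.00 for all genes.

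Genes with the most similar profile over the 9 tumors were taken for each member called at least 1 time, as the 3 genes with the smallest root mean square difference between centred log2 values among 11160 candidates. For Igf1r these were Lpar1, a lysophosphatidic acid receptor gene (0.56), Fstl1 (0.61) and Schip1 (0.63), where the median candidate was at 1.94. For Igfbp5 they were Pla2g7 (0.73), Thsd7a (0.90) and Ramp3 (0.92), with a median of 2.04. For Igfbp1 they were Tmem71 (0.47), the sulfotransferase gene Sult1a1 (0.63) and the urate oxidase gene Uox (0.64), with a median of 1.65. Igf2r was nearest to the interferon-γ receptor gene Ifngr1 (0.20), Hyi (0.23) and Gucd1 (0.25), with a median of 0.78, and Igfbp6 to Pdlim2 (0.34), Mylip (0.42) and Alpk1 (0.42), with a median of 1.07. Among the members themselves, the one nearest to Igfbp5 was Igfbp6, at 1.39, and the one nearest to Igf1r was Igf1, at 1.56. The medians over the 9 other members were 1.95 and 1.96, so neither was as near as the genes named above.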

How the data were processed

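QuantSeq 3′ libraries were prepared from 500 ng of Trizol-extracted RNA, per the labels' protocols. The submitters' processing notes name Bowtie2, edgeR and mm10. Not given in the sources used here: their roles and versions, the counting step, whether it used strand, and its annotation. The deposited log2 values appear, from the values themselves, to be quantile-normalized read counts to which 1 was added before taking logs: the 9 files share their highest value, their totals lie between 19910396 and 19911234, and 9 times the unlogged value is whole for 100% of values (tolerance 0.001, widened in proportion for values above 1). Library depth is therefore not preserved. The check for whole values cannot fail for genes without reads or, through the widened tolerance, for high values, so it rests on low values. A value of 3 reads corresponded to 1.22 to 2.64 on the log2 scale, if successive low values are successive counts, highest in S7HP tumor 11.

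A gene was tested if its log2 value reached 4 in 3 or more libraries. With limma 3.58.1 in R 4.3.3, 1 fit over the 9 libraries used an intensity trend and robust variances (6 residual degrees of freedom). Tests were two-sided with Benjamini-Hochberg adjustment over 14215 genes and a threshold of 0.05. Differences are on the log2(value + 1) scale, which understates changes of low genes. The labels do not say that tumors came from separate mice, so p-values measure only the spread between these tumors. Count tests were not run on the log2 values.

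The members, the pathway and marker lists (170 entries, all matched, 6 by another symbol) and the tests were chosen with earlier results of these data known. All members were named, with up to 4 called genes per other list and comparison and the 3 nearest profiles (mean log2 value of at least 6) per called member. Genes named otherwise are said to be so, and some called list genes are not reported here. Positions are from GENCODE M21 and promoters from RefSeq, both on GRCm38, the assembly of mm10. The fit was tested on data simulated after the S7HP and LHP comparison (14215 genes): it called 16%, 60%, 82% and 84% of genes changed by 1, 2, 3 and 5 and 5 of 14015 unchanged genes. The simulation changed only 50 genes at each size, with independent noise. In the real comparison 19.0% of tested genes were called, so these rates need not hold for these data. Figures used matplotlib 3.10.9. Alternatives changed the offset, scaling, filter, variance model and libraries fitted, and left out each tumor in turn.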

Additional observations from a re-analysis of the deposited data

How the results depend on the processing

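Of the 30 member results (10 genes in 3 comparisons), 9 were called, and 2 of these 9 stayed called in all 15 alternatives: the fall of Igf1r in S7HP and the rise of Igfbp5 with Snail. No called member changed direction in any alternative run. The count of members called in S7HP against LHP (4) ranged from 1 to 4 when 1 tumor was left out, with 1 or 2 on omission of an LHP tumor or of tumor 12. In S7HP+Snail against S7HP (2) it ranged from 1 to 2, with 2 only on omission of tumor 14, and was 1 with no filter on low values, 1 without trend and robust variances and 1 when only the 6 libraries compared were fitted. In S7HP+Snail against LHP (3) it ranged from 0 (on omission of an LHP tumor, tumor 13 or tumor 15) to 3 and was 1 with only the 6 libraries. All genes called numbered 2702 (1465 to 3163 when 1 tumor was left out, lowered over 1.5 times by tumors 3, 6, 9 and 11), 327 (63 to 451, lowered so by tumors 3, 6, 9, 11 and 12, and 120 with only the 6 libraries) and 1026 (293 to 1049, lowered so by each LHP tumor, and 682 with only the 6 libraries), in the same order. The cause was not tested, and leaving out a tumor also leaves fewer samples.

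Of 450 checks over all 30 member results, 16 changed sign, all of them for results that were not called and all when 1 tumor was left out. Over single omissions the S7HP against LHP difference ran from -0.19 (tumor 9) to 1.55 for Igfbp2, from -0.68 (tumor 9; also below 0 for tumors 2, 6 and 12) to 1.05 for Igfbp3 and from -0.14 to 0.15 (tumor 11; also above 0 for tumor 3) for Igfbp7. That of S7HP+Snail against S7HP ran from -0.97 (tumor 14; also below 0 for tumor 11) to 1.25 for Igfbp2, from -0.34 (tumor 11; also below 0 for tumors 14 and 15) to 0.35 for Igfbp4, from -0.054 (tumor 11) to 0.24 for Igfbp7 and from -0.053 (tumor 13) to 0.27 for Igf2r. Against LHP it ran from -0.29 (tumor 14) to 1.92 for Igfbp2 and from -0.012 (tumor 14) to 0.20 for Igfbp7. No paired analysis was possible because the groups share no replicate numbers. Low values in S7HP tumor 11 rest on few reads and limit the estimates for Igf1r and Igfbp5 there.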

Other observations

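Of 10 genes for IGFBP-related, low-affinity binders (the CCN family, Esm1 and others), 8 were tested and 1 was called in S7HP against LHP. Over all tested genes 19.0% were called there. Wisp1, the CCN matrix protein gene also named Ccn4, was at 8.87, 8.93 and 9.31 in LHP tumors 2, 3 and 6 and 6.09, 5.79 and 6.22 in S7HP tumors 9, 11 and 12, a fall by 3.00 ± 0.43 (SE; limma, adjusted p = 0.00228). In S7HP+Snail tumors 13, 14 and 15 Wisp1 was at 7.64, 5.98 and 7.47, lower than in LHP by -2.01 (adjusted p = 0.0260), a call that ended on omission of any LHP tumor or with only the 6 libraries compared (up to 0.0951). The median of the list was -1.51 in S7HP against LHP and 1.17 in S7HP+Snail against S7HP, where 0 of 8 were called by limma and 4 had an unadjusted p under 0.05. The all-gene medians were 0.02 and -0.02.

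Of 13 fasting-induced and FoxO-linked liver genes, a class to which Igfbp1 also belongs, 4 were higher and 0 lower in S7HP than in LHP. Over all tested genes 9.47% were called higher and 9.54% lower. Trib3, a pseudokinase gene, was at 8.04, 7.80 and 7.57 in LHP and 10.15, 9.50 and 10.01 in S7HP (2.08 ± 0.35 SE; limma, adjusted p = 0.00490). Txnip, encoding an inhibitor of thioredoxin, rose by 2.19 ± 0.45 in S7HP and by 2.11 ± 0.45 in S7HP+Snail relative to LHP (adjusted p = 0.0105 and 0.0265), the second not passing when tumor 2, 3 or 13 was omitted (up to 0.0863). The coactivator gene Ppargc1a (2.27) and the transcription factor gene Klf15 (2.52) had adjusted p-values of 0.0412 and 0.0421 (limma), and these calls were lost in 7 and 8 of 15 alternatives, which for both include the omission of an LHP tumor, tumor 9 or tumor 11, and for Ppargc1a also tumor 12 (up to 0.133). With Snail, 0 of 13 were called against S7HP by limma, and 4 had an unadjusted p under 0.05. The list's medians were 0.83 in S7HP against LHP and -0.21 in S7HP+Snail against S7HP.

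Of 8 biliary markers, 2 were higher and 1 lower in S7HP than in LHP, and of 7 erythroid markers 1 was higher (Slc4a1). In that comparison 9.47% of all tested genes were called higher and 9.54% lower. Of 10 lymphocyte markers 5 were tested and 0 called by limma, with 0 at an unadjusted p under 0.05.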
